A study of Mus musculus with 16 samples.

Results

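RNA abundance of 9 genes of glutamate and GABA uptake, metabolism and sensing was followed in mouse striatum after an injection of clozapine N-oxide (CNO). The genes were chosen by symbol, as Slc1a2, Slc1a3, Glul, Slc6a11, Abat, Slc38a3, Glud1, Grm3 and Grm5, and all 9 were found among the 17097 genes of the deposited tables and passed the filter on low values in every comparison. Tissue came from male wild-type C57BL/6J mice at postnatal day 63, 2 h after the injection. IP is RNA on astrocyte ribosomes precipitated through a hemagglutinin tag, and input is RNA of the cleared lysate of the whole striatum. Each of the 4 groups has 4 libraries: IP after CNO at 1 mg/kg (CNO IP), IP after vehicle (vehicle IP), input after CNO at that dose (CNO input) and input after vehicle (vehicle input). CNO is a ligand of designer receptors, and the series title names Gi signalling in striatal astrocytes. The labels used here give neither the receptor nor what carried the receptor and the tag into the cells, and a group given CNO without the receptor was not analysed here, so an effect of CNO itself cannot be told apart from one through the receptor. Sample titles carry 8 different mouse codes, and each code, 4 of them CNO and 4 vehicle, stands on 1 IP and 1 input library. The series text counts 4 mice. If the codes are not separate animals, the p-values cover technical spread alone.

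Astrocytes take up much of the glutamate that neurons release. The sodium-driven transporters GLT-1 (Slc1a2) and GLAST (Slc1a3) carry it in, glutamine synthetase (Glul) turns it into glutamine, and the transporter SN1 (Slc38a3) can hand glutamine back to neurons. Glutamate dehydrogenase (Glud1) instead feeds it into the citric acid cycle. GABA is cleared by GAT-3 (Slc6a11) and broken down by GABA transaminase (Abat). The receptors mGlu3 (Grm3, coupled to Gi) and mGlu5 (Grm5, coupled to Gq) sense glutamate, and in the adult striatum mGlu5 is abundant in neurons.

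The IP libraries held 52.1 to 61.5 M reads (M, mega) assigned to genes and the input libraries 32.8 to 40.3 M, recovered from the deposited log2 CPM (counts per 1 M reads). The 12 astrocyte markers examined were all higher in IP than in input after either injection, and the 12 measured markers of medium spiny neurons, the 10 of microglia and the 7 of endothelium were all lower. Markers of other cells were also higher in IP, namely 7 of 8 interneuron markers after either injection and, of 9 oligodendrocyte markers, 8 in CNO mice and 6 in vehicle mice. On the mouse build GRCm38 (GENCODE M21), which is also mm10, the positions were as follows for 7 of the genes: Slc1a3 (chr15:8634124-8710764), Slc6a11 (chr6:114131241-114249952), Abat (chr16:8513429-8621568), Slc38a3 (chr9:107650634-107669530), Glud1 (chr14:34310727-34345265), Grm3 (chr5:9485541-9725170) and Grm5 (chr7:87584168-88134907). Each is protein coding, and none of these 7 overlaps another protein-coding gene. In bulk RNA of this kind, fewer cells of a type and less RNA per cell cannot be told apart.

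Promoter sequence is shown for 3 genes that the results below turn on: Slc1a2, the gene of the 9 with the largest difference between IP and input, Glul, the gene of the 9 with the largest CNO difference in IP, and Slc7a11, a cystine-glutamate exchanger gene outside the 9 that rose after CNO. Each run holds the 250 bases before the transcription start in RefSeq (GRCm38.p6), 5′ to 3′ on the gene's strand. Capitals mark matches to a composite site of the stress factor ATF4, searched as TGATGNAA on both strands.
Slc1a2 (chr2:102706188-102706437, plus strand): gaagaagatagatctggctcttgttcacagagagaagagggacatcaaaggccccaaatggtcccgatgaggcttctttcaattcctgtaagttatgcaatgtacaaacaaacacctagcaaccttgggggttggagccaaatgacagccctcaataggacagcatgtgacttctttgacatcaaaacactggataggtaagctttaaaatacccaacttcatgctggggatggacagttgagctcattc
Glul (chr1:153899679-153899928, plus strand): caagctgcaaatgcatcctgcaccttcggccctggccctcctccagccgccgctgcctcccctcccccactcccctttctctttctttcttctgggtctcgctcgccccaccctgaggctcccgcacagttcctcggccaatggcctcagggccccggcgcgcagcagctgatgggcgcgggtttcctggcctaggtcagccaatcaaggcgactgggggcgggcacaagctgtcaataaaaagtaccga
Slc7a11 (chr3:50443614-50443863, minus strand): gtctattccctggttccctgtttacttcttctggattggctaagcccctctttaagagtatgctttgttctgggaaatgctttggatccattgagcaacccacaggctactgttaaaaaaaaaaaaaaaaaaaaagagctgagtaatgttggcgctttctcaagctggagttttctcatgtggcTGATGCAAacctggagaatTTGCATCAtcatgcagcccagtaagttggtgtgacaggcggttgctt
The RefSeq start used for Slc1a2 lies inside the longer gene span of the GENCODE M21 annotation (chr2:102658659-102790784), so its window is upstream of that start but within the gene, while the Glul window ends just before the gene (chr1:153899944-153909723). Of the 9 genes, 6 had a promoter in the table, all but Abat, Slc38a3 and Grm5. The 6 windows held 0 matches to the ATF4 composite, to the AP-1 site TGANTCA or to the full cAMP response element TGACGTCA. Among 32851 promoter windows of the same length, 3.45% held the first, 6.75% the second and 1.55% the third. The Slc7a11 window held 2 composite matches, 66 and 47 bases before the start. Of the other genes that rose in CNO IP, Grm7 has 2 overlapping windows that hold the same composite match, 82 and 168 bases before their starts, and the windows of Aldh18a1 and Homer1 held 0 matches to any of the 3 motifs. Slc7a5, which also rose, had no promoter in the table and was not searched. These letter matches describe the windows and were not tested against the expression values.

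Enrichment in the ribosome capture was examined first, by setting IP against input. Of the 9 genes, 8 were higher and 1, Grm5, was lower in IP than in input, in CNO mice and in vehicle mice alike, and in all 9 genes the 4 IP values and the 4 input values did not overlap. Such calls were common. The 4 IP and the 4 input values did not overlap for 70% of the 15819 genes tested in CNO mice and for 69% of the 15872 tested in vehicle mice. By the adjusted p, in CNO mice 75% of genes differed (40% higher, 35% lower), and in vehicle mice 74.9% (37.7% higher, 37.2% lower). Adjusted p-values (limma, Benjamini-Hochberg over all genes tested) of the 9 ranged from 4.71e-10 to 1.25e-04 in CNO mice and from 5.99e-09 to 1.18e-05 in vehicle mice. These fits and the SEs given below for IP against input, unless said otherwise, ignore that both libraries come from the same mouse. A fit with the mouse as a block kept the direction and call of all 9. The median log2 difference of the 9 was 2.22 in CNO mice and 2.32 in vehicle mice, beside 0.04 and 0.01 over all genes tested.

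Both glutamate transporter genes were many times higher in IP than in input. In IP, Slc1a2 stood at 18579, 19773, 19053 and 18433 CPM in CNO mice 2 to 5 and at 20547, 21759, 22212 and 14985 CPM in vehicle mice 2 to 5. In input it stood at 2129.8, 1257, 1298 and 1468 CPM in CNO mice and at 1510.0, 1598, 1538 and 1099 CPM in vehicle mice. CNO mouse 2 was the highest of all input libraries and vehicle mouse 5 the lowest of each vehicle group. The log2 difference between IP and input was 3.66 (SE 0.15), or 12.6-fold, in CNO mice and 3.79 (SE 0.16), or 13.8-fold, in vehicle mice. Only 4 of the 15819 genes tested in CNO mice and 3 of the 15872 tested in vehicle mice had a larger difference in favour of IP.

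Slc1a3, the other glutamate transporter gene, showed the same split. Its IP values were 3011, 3261, 3061 and 2986 CPM in CNO mice and 3275, 2861, 3397 and 2622 CPM in vehicle mice, and its input values were 464, 435, 434 and 414 CPM in CNO mice and 466, 422, 483 and 397 CPM in vehicle mice. Both IP groups lay far above both input groups, with log2 differences of 2.82 (SE 0.06) in CNO mice and 2.78 (SE 0.10) in vehicle mice. Within 1 library, the ratio of the CPM of Slc1a2 to that of Slc1a3, not corrected for length, averaged 6.16 in CNO IP against 3.44 in CNO input, and 6.50 in vehicle IP against 3.23 in vehicle input. After either injection the 4 IP ratios lay above the 4 input ratios, and a ratio within a library does not depend on how libraries are scaled. The exact two-sided permutation test gave p = 0.0286 for each, the smallest that 4 against 4 libraries allow, and 0.0605 after Benjamini-Hochberg adjustment over 36 ratio tests, above the threshold of 0.05. That test ignores that IP and input come from the same mice. An exact sign-flip test on the pairs gave p = 0.125 for each, the smallest that 4 pairs allow.

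The GABA genes differed from each other in how far IP exceeded input. Slc6a11 stood at 526, 445, 366 and 304 CPM in IP of CNO mice 2 to 5, against 122, 42.2, 40.04 and 38.0 CPM in their input. In vehicle mice it stood at 502, 619.9, 421 and 334 CPM in IP, against 62.3, 67.8, 55.0 and 39.6 CPM in input. The input of CNO mouse 2 was the highest by a wide margin, and that mouse also had the highest IP value of the CNO group. That input library also differed from its group in cell type markers. Summed medium spiny neuron markers were lowest there, at 7283 CPM against 7830 to 10560 CPM, and microglia markers too, at 925 CPM against 1276 to 1394 CPM. Interneuron markers were highest, at 306 CPM against 251 to 256 CPM, while astrocyte markers, at 2180 CPM, lay within the range. The part of these differences in the Slc6a11 and Slc1a2 values was not tested. The log2 difference of Slc6a11 was 2.92 (SE 0.38) in CNO mice and 3.05 (SE 0.22) in vehicle mice. With the mouse as a block, which pairs IP and input, the SEs were 0.21 and 0.053. Without the input library of CNO mouse 2 the unpaired log2 difference in CNO mice was 3.33 (adjusted p = 4.85e-07, limma). Abat stood at 1386, 1352, 1369 and 1144 CPM in CNO IP and at 539.6, 547, 600.97 and 471 CPM in CNO input. The vehicle mice gave 1429, 1517, 1385 and 1212 CPM for Abat in IP and 588, 605, 502 and 559 CPM in input. The Abat log2 differences of 1.28 (SE 0.09) in CNO mice and 1.30 (SE 0.08) in vehicle mice were the smallest among the 8 genes that were higher in IP.

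Among genes of the glutamine cycle, Slc38a3 showed the largest log2 difference and Glud1 the smallest. Glul stood at 4896, 5179, 5003 and 5257 CPM in CNO IP and at 1114, 1146, 1067 and 1035 CPM in CNO input. Vehicle mice gave 6369, 6127, 6797 and 5181 CPM for Glul in IP and 1278, 1337, 1303 and 981 CPM in input. The log2 difference of Glul was 2.22 (SE 0.06) in CNO mice and 2.32 (SE 0.12) in vehicle mice. Slc38a3 stood at 315, 327, 307 and 330.4 CPM in CNO IP, against 42.5, 41.8, 49.7 and 44.9 CPM in CNO input. Its vehicle values were 368, 309, 381 and 348 CPM in IP, against 55.3, 48.1, 56.3 and 59.2 CPM in input. Its log2 difference was 2.84 (SE 0.06) in CNO mice and 2.68 (SE 0.08) in vehicle mice. Glud1 stood at 886, 967, 893 and 798 CPM in CNO IP, against 270.0, 266, 271 and 238 CPM in CNO input. Its vehicle values were 1001, 1033, 1061 and 869.9 CPM in IP, against 281, 296, 277 and 270.4 CPM in input, and the log2 differences were 1.76 (SE 0.07) in CNO mice and 1.81 (SE 0.07) in vehicle mice. Of the 50-base stretches of Glul transcripts, 12.6% also occur in transcripts of other genes, most of them in the pseudogene Glns-ps1, and for Glud1 the share is 6.49%, most in Glud-ps, so reads of these genes may be shared with their pseudogenes. Glul also overlaps Teddm2 on the opposite strand, and the strand setting of the counting is not given in the sources used here.

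The glutamate receptors went in opposite directions. Grm3 stood at 436, 460.4, 474 and 474 CPM in CNO IP and at 152, 165, 169 and 167 CPM in CNO input. In vehicle mice Grm3 stood at 499.6, 495, 523 and 434 CPM in IP and at 184, 198, 153 and 151 CPM in input, so both IP groups lay above both input groups. Grm5 stood at 439, 357, 418 and 327 CPM in CNO IP, below its 663, 782, 847 and 702 CPM in CNO input. Its vehicle values were 379.8, 419, 395 and 313 CPM in IP, below 786, 791, 652 and 751 CPM in input. The log2 differences were 1.498 (SE 0.05) in CNO mice and 1.51 (SE 0.10) in vehicle mice for Grm3, and -0.96 (SE 0.11) and -0.99 (SE 0.10) for Grm5. In each library group the ratio of Grm3 to Grm5 kept this split, at 1.20 in CNO IP against 0.219 in CNO input and 1.30 in vehicle IP against 0.229 in vehicle input (exact permutation p = 0.0286 each, adjusted 0.0605, and exact sign-flip p = 0.125 each over the paired libraries). The medium spiny neuron markers were lower in IP along with Grm5, with summed values of 2721 to 4156 CPM in CNO IP against 7283 to 10560 CPM in CNO input, and their part in the Grm5 difference was not tested.

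**Figure D1:**
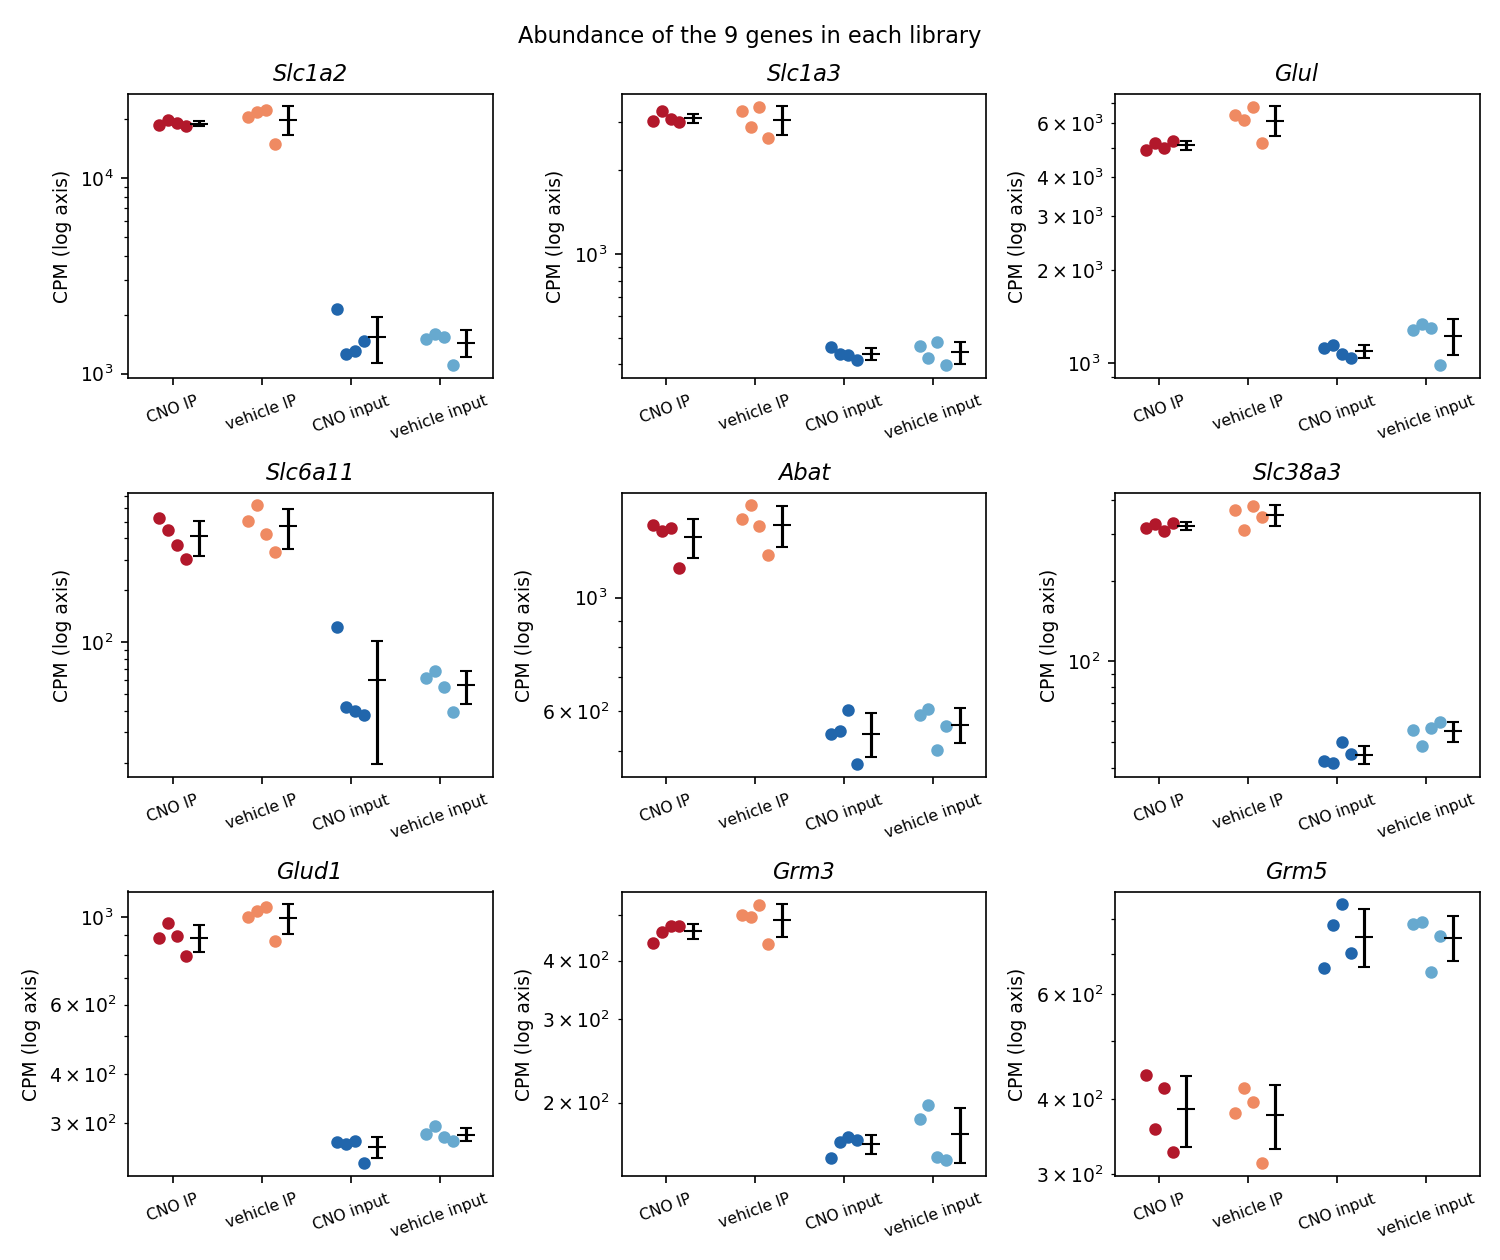
Abundance of each of the 9 genes in each of the 16 libraries, in CPM on a log axis, with 1 panel per gene. Points are libraries, in the order of replicates 2 to 5 from left to right, and the black mark and bar give the mean and SD of the 4 libraries. The IP points lie above the input points in 8 panels and below them in the Grm5 panel, while CNO and vehicle points of the same RNA type overlap in all 9.

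**Figure D2:**
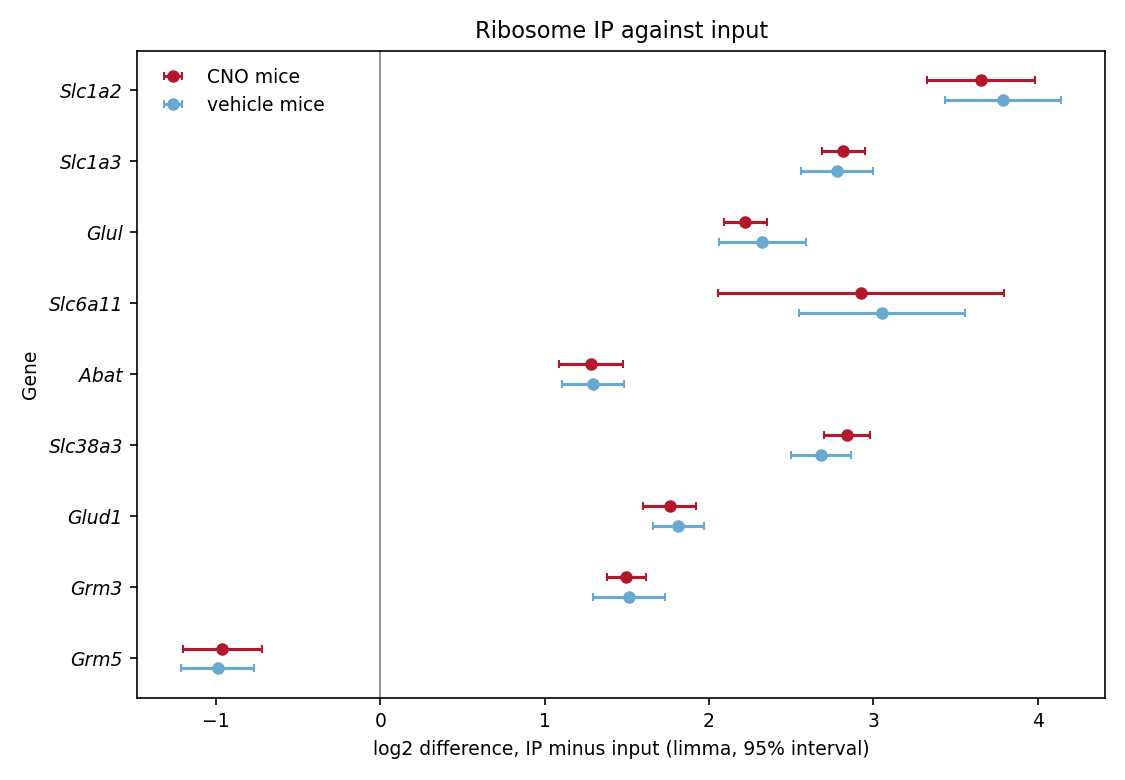
Log2 difference of IP minus input for each gene, with its 95% interval from limma, in CNO mice (red) and in vehicle mice (blue). Slc1a2 lies highest, at 3.66 and 3.79, and Grm5 is the 1 gene below 0.

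Per kilobase of annotated exon (GENCODE M21), Glul and Slc1a2 were the most abundant of the 9 in IP. Glul averaged 1530 ± 49.3 CPM per kb and Slc1a2 1444 ± 46.0 CPM per kb in CNO IP, and 1841 ± 206 and 1513 ± 254 CPM per kb in vehicle IP (SD, n = 4), and the ranges of the pair overlapped in both groups. Slc1a3 followed at 361 ± 14.6 CPM per kb in CNO IP and 356 ± 42.2 in vehicle IP, then Glud1. Abat and Grm3 came next with overlapping ranges, Slc6a11 and Slc38a3 after them, also overlapping, and Grm5 last at 37.6 ± 5.08 CPM per kb in CNO IP and 36.8 ± 4.44 in vehicle IP. Input had another order. There Glul led alone, at 328 ± 14.8 CPM per kb in CNO input and 368 ± 49.4 in vehicle input, Slc1a2 was second, and Grm5 followed at 73.1 ± 8.04 in CNO input and 72.7 ± 6.28 in vehicle input, overlapping with Abat. Slc6a11 and Slc38a3 were the lowest in input, at 12.002 ± 8.14 and 8.48 ± 0.680 CPM per kb in CNO input and 11.1 ± 2.42 and 10.4 ± 0.895 in vehicle input.

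The second comparison asks how the astrocyte ribosome RNA of these genes changed 2 h after CNO. None of the 9 passed: 0 rose and 0 fell in IP, where limma called 17.3% of the 15602 genes tested (10.2% higher, 7.08% lower). At an unadjusted p under 0.05 the count was 1 of 9 (Glul), beside 29.6% of all genes tested, and limma-voom on the recovered reads also called 0, with 1 at an unadjusted p under 0.05. The CNO and vehicle values overlapped for each of the 9 genes, whereas for 22.9% of all genes tested they did not. Their log2 differences ran from -0.26 to 0.03, with a median of -0.08 beside -0.01 over all genes tested, and their 95% intervals together covered -0.69 to 0.31.

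Glul came nearest to the threshold. It averaged 5084 ± 164 CPM in CNO IP and 6118 ± 684 CPM in vehicle IP (SD, n = 4 each), a log2 difference of -0.26 (SE 0.09, 95% interval -0.45 to -0.07) with an adjusted p of 0.0695 (limma). The overlap came from vehicle mouse 5, whose 5181 CPM lay inside the CNO range of 4896 to 5257 CPM, while the other vehicle mice stood at 6127 CPM or more. Without that library the log2 difference was -0.34 and the adjusted p 0.00393, and with upper quartile scaling of the libraries it was -0.32 and the adjusted p 0.0319, so the call depends on both choices. The IP library of vehicle mouse 5 was the lowest of its group for 8 of the 9 genes, all but Slc38a3. The share of all genes lowest there was not computed. Its summed astrocyte markers, at 14912 CPM, were the highest of the group, but single markers were mixed. Gfap, at 5424 CPM, and Aqp4, at 1590 CPM, were the highest of the group there. Aldoc, at 3089 CPM, and Gja1, at 927 CPM, were the lowest. Summed oligodendrocyte markers were also highest in that library, at 14133 CPM against 6023 to 10615 CPM in the rest of the group. So were microglia markers, at 65.1 CPM against 28.6 to 50.8 CPM, while medium spiny neuron markers were lowest, at 3106 CPM against 3368 to 3558 CPM. The part of these differences in the Glul values was not tested.

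The glutamate transporter genes had estimates near no change. Slc1a2 averaged 18959.6 ± 603 CPM in CNO IP and 19876 ± 3335 CPM in vehicle IP, a log2 difference of -0.05 (SE 0.12), which as a fold is 0.965 with a 95% interval of 0.796 to 1.17. Slc1a3 averaged 3079.8 ± 125 CPM in CNO IP and 3039 ± 360.5 CPM in vehicle IP, a fold of 1.02 with an interval of 0.888 to 1.17. The sign of the Slc1a3 value turns to negative with median or upper quartile scaling, and so does that of Grm5, at 0.03 (SE 0.12). Slc6a11 had the widest interval of the 9 in IP, a fold of 0.879 with 95% bounds of 0.622 and 1.24. Changes within these bounds are not excluded by the values.

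The other members gave small negative values. Slc38a3 differed by -0.13 (SE 0.07, adjusted p = 0.235, limma), Glud1 by -0.16 (SE 0.08, adjusted p = 0.223), Abat by -0.08 (SE 0.09) and Grm3 by -0.08 (SE 0.06). Without the IP library of vehicle mouse 3, which was the lowest of its group for Slc38a3, the value of Slc38a3 was -0.19 and passed (adjusted p = 0.0377). Of the 12 astrocyte markers, 2 fell in CNO IP (Gja1 and S100b) and 0 rose. Their log2 differences ran from -0.30 to 0.32, with a median of -0.15 beside -0.01 over all genes tested. The sum over the 12, in which abundant genes weigh most, ran from 12443 to 14599 CPM in CNO IP and from 12453 to 14912 CPM in vehicle IP. The part of these markers in the values of the 9 genes was not tested.

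In whole-striatum input CNO called 0 of the 9 genes, where it called 0.998% of the 15825 genes tested (0.815% higher, 0.183% lower). At an unadjusted p under 0.05 the count was again 1, here Slc38a3, beside 10.1% of all genes tested, and limma-voom called 0 with 1 at an unadjusted p under 0.05. Slc38a3 averaged 44.8 ± 3.59 CPM in CNO input and 54.7 ± 4.72 CPM in vehicle input (SD, n = 4 each), and the groups overlapped only between 48.1 and 49.7 CPM. Its log2 difference was -0.29 (SE 0.08, 95% interval -0.46 to -0.11), with an adjusted p of 0.177 (limma). Glul differed by -0.16 (SE 0.10) and Glud1 by -0.11 (SE 0.06), neither past the test. Slc6a11 had an interval of -0.99 to 0.87 in input, with 122 CPM in CNO mouse 2 beside 38.0 to 42.2 CPM in the other CNO mice. The 7 endothelial markers summed to 80.3 to 102 CPM in CNO input against 117 to 126 CPM in vehicle input, and 2 of them fell (Cldn5 and Slco1a4). Their part in the input values of the 9 genes was not tested.

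The CNO effect in IP was then set against that in input in 1 model over the 16 libraries. It differed for 0 of the 9 genes, with 0 at an unadjusted p under 0.05, beside 14.9% of all genes tested, and 0 by limma-voom on either count, while 4.76% of the 16256 genes tested were called (4.18% higher, 0.572% lower). The differences of effects ran from -0.13 for Slc1a2 to 0.16 for Slc38a3, with adjusted p-values of 0.593 to 0.988. With the mouse as a block, which pairs the IP and input library of each animal, 7.63% of all genes were called and still 0 of the 9.

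**Figure D3:**
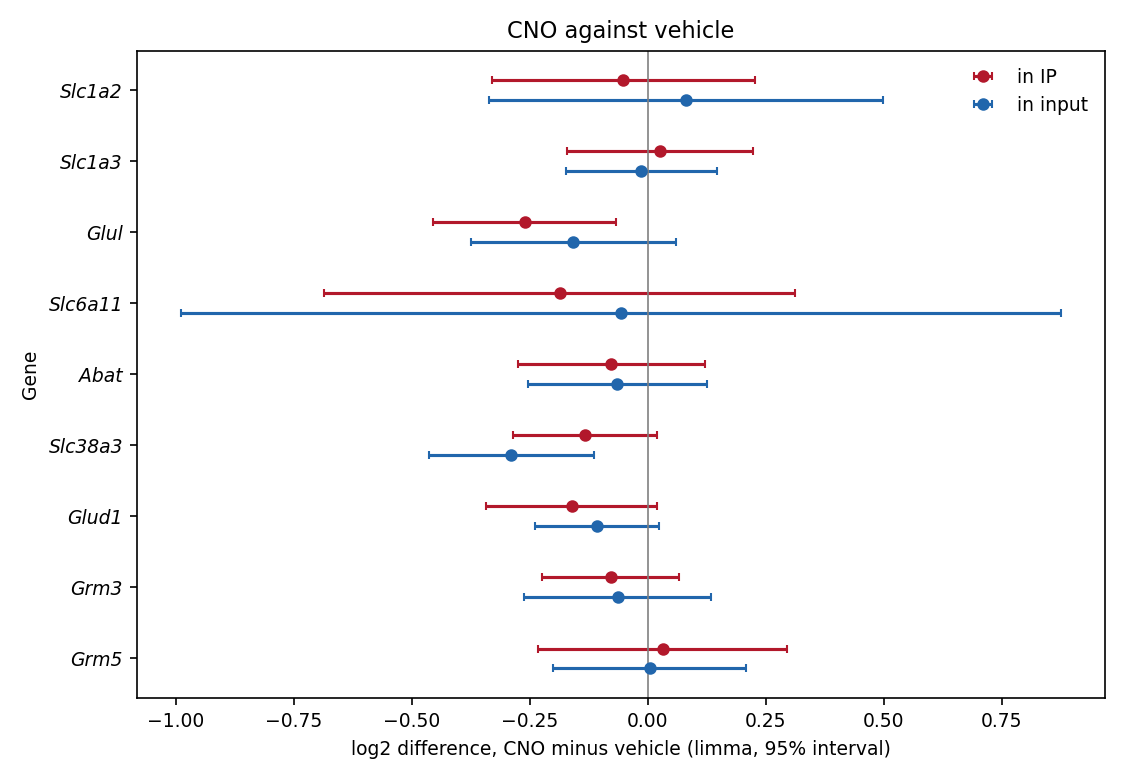
Log2 difference of CNO minus vehicle for each gene, with its 95% interval from limma, in IP (red) and in input (blue). The 9 IP values lie between -0.26 and 0.03, and the intervals of Slc6a11 are the widest in both RNA types.

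A list of 63 other genes of these pathways was examined beside the 9, of which 62 were measured. In IP against input, 27 were higher and 15 lower in CNO mice, and 27 were higher and 18 lower in vehicle mice. Over all genes tested 40% were higher and 35% lower in CNO mice. With median or upper quartile scaling the count of lower genes of the list in CNO mice was 24 or 26. Differences below are log2 values of IP minus input, in CNO mice first and vehicle mice second. Of the other glutamate carriers, the neutral amino acid transporter gene Slc1a4 was higher in IP (1.97 and 2.03), as were the glutamate transporter Slc1a6 (1.04 and 1.29) and the exchanger Slc7a11 (2.75 and 2.27), while the mainly neuronal Slc1a1 was lower (-0.50 and -0.57). The GABA transporter gene Slc6a13, encoding GAT-2, was lower in IP (-4.49 and -3.94).

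Of the 18 other enzymes, 11 were higher in IP after either injection. They included Maob, which oxidises monoamines (2.64 and 2.55), the proline-degrading enzymes Prodh (2.61 and 2.45) and Aldh4a1 (2.54 and 2.43), the alanine aminotransferase Gpt (1.74 and 1.64) and Folh1, which splits the peptide transmitter NAAG (1.70 and 1.68). The GABA-making enzymes Gad1 and Gad2 did not pass, with values between -0.12 and 0.02. The mitochondrial glutamate carrier Slc25a18 was higher (2.25 and 2.48), and Slc17a8, encoding the vesicular glutamate transporter VGLUT3, was higher as well (2.53 and 2.62). The cell type behind the Slc17a8 value was not tested, and 7 of 8 interneuron markers were also higher in IP.

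Among the other metabotropic glutamate receptors, Grm4, Grm7 and Grm8 were lower in IP, at values from -1.05 to -0.71 in CNO mice and from -1.09 to -0.86 in vehicle mice. Grm2 did not pass (0.33 and 0.54). Of the 12 receptor partners, the scaffold Homer3 (2.28 and 2.07), the inositol trisphosphate receptor Itpr2 (2.27 and 2.27) and the phospholipase Plcb4 (1.49 and 1.67) were higher in IP, while Homer1 (-1.11 and -1.70), the G protein regulator Rgs4 (-1.63 and -1.68) and Grasp (-1.06 and -1.29) were lower. Atp1b2, a subunit of the sodium pump that maintains the sodium gradient glutamate uptake runs on, was higher as well (3.45 and 3.86).

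After CNO, 5 of the 62 genes rose in IP and 0 fell, beside 10.2% and 7.08% of all genes tested. With median scaling 1 gene of the 62 fell, and with upper quartile scaling 2. Slc7a5, encoding the amino acid exchanger LAT1, stood at 177, 166, 143 and 158 CPM in CNO IP and at 59.6, 65.7, 54.2 and 58.6 CPM in vehicle IP, a log2 difference of 1.43 (SE 0.08, adjusted p = 2.76e-06, limma). Slc7a11 stood at 449.8, 547, 459.8 and 483 CPM in CNO IP and at 287, 228, 303 and 317 CPM in vehicle IP, a log2 difference of 0.78 (SE 0.11, adjusted p = 0.00109). In both genes each CNO library lay above each vehicle library. Aldh18a1, which converts glutamate towards proline, stood at 64.5, 53.4, 49.4 and 56.7 CPM in CNO IP and at 34.5, 35.4, 32.2 and 35.6 CPM in vehicle IP, a log2 difference of 0.70 (SE 0.08, adjusted p = 3.28e-04). Homer1, a scaffold of mGlu5 with a short form induced by activity, stood at 201, 191, 211 and 215 CPM in CNO IP and at 144, 139.9, 137 and 133 CPM in vehicle IP, a log2 difference of 0.56 (SE 0.05, adjusted p = 6.67e-05). The values do not separate the forms of Homer1. Grm7 passed by a small margin at 0.16 (SE 0.04, adjusted p = 0.0265), and its call was lost with median scaling (adjusted p = 0.109), upper quartile scaling (0.139) and when any 1 of 6 of the 8 libraries was left out (0.0542 to 0.0856).

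In input, 1 of the 62 genes rose and 0 fell, again Slc7a5, at 44.4, 41.4, 42.5 and 43.8 CPM in CNO input and 30.6, 28.9, 29.0 and 36.6 CPM in vehicle input. Its log2 difference was 0.47 (SE 0.08, adjusted p = 0.0205, limma), and the call was lost when any 1 of 7 of the 8 libraries was left out (adjusted p = 0.0550 to 0.0971). Slc7a11 differed by 0.31 in input without passing (adjusted p = 0.216). The CNO effect was larger in IP than in input for Slc7a5 by 0.97 (SE 0.11, adjusted p = 4.07e-05), for Aldh18a1 by 0.63 (SE 0.12, adjusted p = 0.00504) and for Homer1 by 0.59 (SE 0.12, adjusted p = 0.00734). For Slc7a11 it was larger by 0.47 (SE 0.15, adjusted p = 0.0875), and it passed with the mouse as a block (adjusted p = 0.00148). Slc7a5 overlaps the gene model Gm20388 on the opposite strand.

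**Figure D4:**
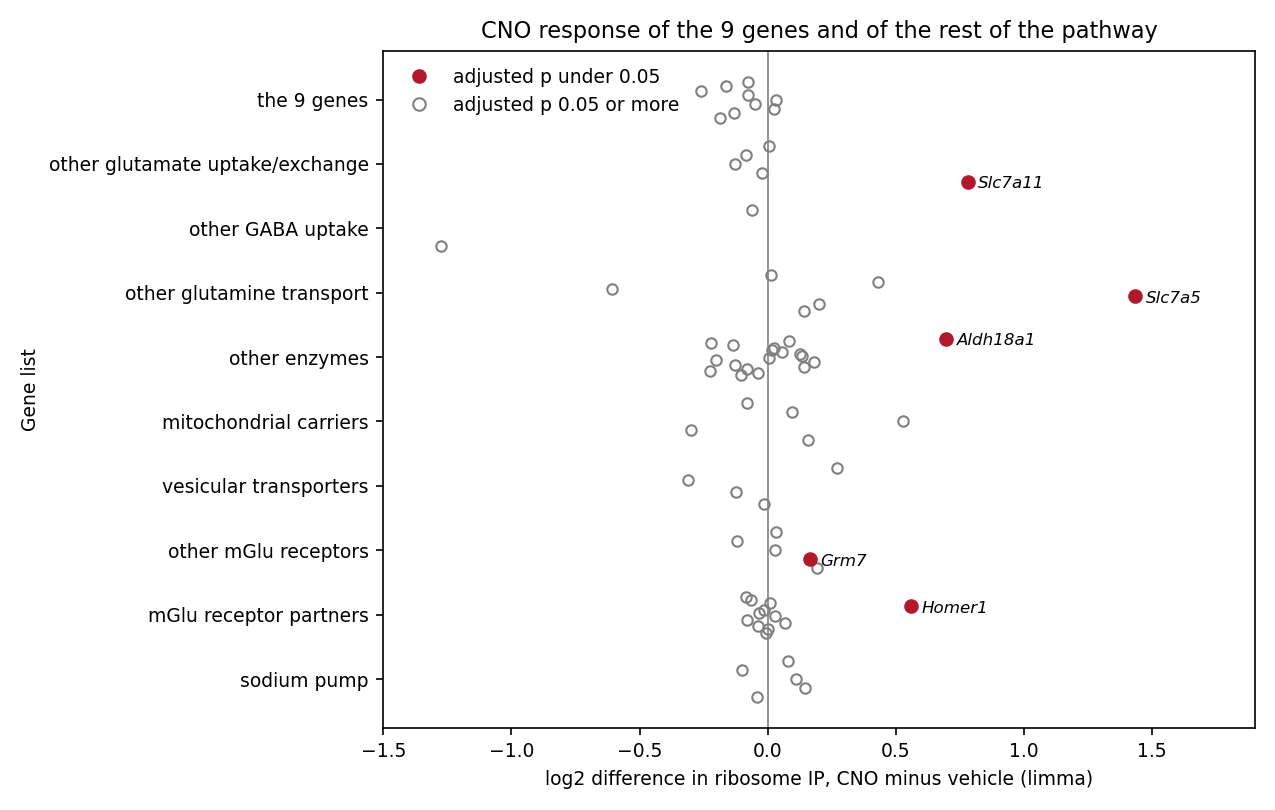
Log2 difference of CNO minus vehicle in IP for the 9 genes (top row) and for the 62 other measured genes by list, where filled red points passed an adjusted p of 0.05 in limma and open points did not. The 5 named genes that rose stand to the right of 0, and the 9 genes lie between -0.26 and 0.03.

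For each of the 9, the 3 genes with the most similar pattern were found by Pearson correlation of log2 CPM over the 16 libraries. The search covered 10760 genes of a mean log2 CPM of 3 or more and left out the 9 themselves, so nearest below means nearest outside the 9. These correlations are a description, since the libraries share their injection groups and fall into IP and input. They ran from 0.993 to 0.999. Slc1a2 was nearest to Ddah1, Trpm3 and Farp1, and Slc1a3 to Mlc1, Scg3 and Emp2. Glul was nearest to Dhrs4, Aldoc and Mmd2, Slc38a3 to Apoe, Maob and Cpt1a, and Glud1 to Fgfr3, Oplah and Pygb. Slc6a11 was nearest to Ahcyl2, Zfp423 and Rimklb, and Abat to Slc4a4, Pgm2 and Vwa8. Grm3 was nearest to Aplp2, Trappc9 and Dhrs4, whereas Grm5 was nearest to Calb1, Alcam and Elmod1.

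The ratio of IP to input was also taken within each mouse. Over the 8 mice it ran from 8.72 to 15.7 for Slc1a2, from 6.50 to 7.49 for Slc1a3, from 5.87 to 7.82 for Slc38a3 and from 4.39 to 5.28 for Glul. Slc6a11 ran from 4.31 to 10.5, a 2.45-fold range and the widest of the 9 as a fold, beside 1.80-fold for Slc1a2. CNO mouse 2 had the lowest ratio for 4 genes (Slc1a2, Slc1a3, Glul and Slc6a11) and the highest for Grm5, and vehicle mouse 5 had the lowest for Slc38a3, Glud1, Abat and Grm5. Glud1 ran from 3.22 to 3.83, Grm3 from 2.50 to 3.41, Abat from 2.167 to 2.76 and Grm5 from 0.416 to 0.663, so 8 genes exceeded 1 and Grm5 stayed below it in every mouse.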

How the data were processed

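The deposited values are log2 CPM per gene, made by the authors, 1 table per library. Per the submitters' processing notes, bcl2fastq 2.17, STAR, HTSeq and limma were used with build mm10. The strand setting and annotation are not stated there. Per the labels' protocols, a Nugen Ovation V2 kit made paired-end libraries from IP or input RNA. Undoing the log2 with a prior count of 0.25 gave whole reads, within 0.01, for 100% of values. A duplicate line was dropped and 2 ambiguous lines are not named.

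Comparisons were fitted with limma 3.58.1 (R 4.3.3; lmFit, eBayes with trend and robust) on the deposited log2 values over the compared groups, adjusted by Benjamini-Hochberg over all genes tested, threshold 0.05. Genes needed 15 reads in all and, in 4 libraries, a CPM worth 10 reads in the library of median size. Ratios of gene pairs within a library were tested with exact permutation, and for IP against input also with exact sign flips over the pairs. IP and input of 1 mouse code share an animal, and their deviations from the group means correlated at 0.180 to 0.403 in CNO mice and 0.189 to 0.546 in vehicle mice, so the mouse block is a paired fit. Fits were tested on simulated data.

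All 9 genes and the 5 others that passed in CNO IP are given with values. Other pathway genes are named where they passed, or for lists of up to 5 genes; some are not reported here. The members and lists were chosen with earlier results of these data known. Promoters are from RefSeq.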

Additional observations from a re-analysis of the deposited data

Results flagged for a closer look

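In 56 groups of 4 libraries, formed by the 9 genes and the 5 others that rose in CNO IP, 5 had 1 library far from the other 3, where chance alone gives about 1 in 20. They were Slc6a11 at 122 CPM in the input of CNO mouse 2, Slc7a11 at 74.8 CPM in the same library, Glud1 at 238 CPM in the input of CNO mouse 5, Abat at 1144 CPM in the IP of CNO mouse 5, and Glul at 981 CPM in the input of vehicle mouse 5. The Slc6a11 library was the highest and the Slc7a11 value was high by a small absolute margin, against 70.8 to 71.3 CPM. The other 3 were the lowest of their groups.

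The libraries of replicate 5 were low for many of the 9 genes. They were the lowest of their group for 6 genes in CNO IP, 8 in vehicle IP, 5 in CNO input and 6 in vehicle input. They were also the highest for 3 genes in CNO IP and for 1 in vehicle input. The share over all genes was not computed. CNO mouse 5 also had the highest Slc17a7, a vesicular glutamate transporter gene, of its groups. It stood there at 334 CPM in input, where the lowest was 36.4 CPM, and at 282 CPM in IP, where the lowest was 26.6 CPM. In the vehicle groups Slc17a7 was highest in mouse 4 instead, at 288 CPM in input and 145 CPM in IP. The part of tissue composition in the values of the 9 genes was not tested. The replicate numbers do not pair CNO with vehicle mice, so the number 5 is not taken as a batch.

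By an interaction test in limma, the CNO effect was larger in IP than in input for 3 of the 62 other measured pathway genes. Of all 16256 genes tested, 4.18% were called in this direction, and whether the list exceeds that share was not tested. The 3 genes had already been called higher after CNO in the same IP libraries, so these results are not independent of those calls. The differences of log2 effects were 0.97 for Slc7a5, 0.63 for Aldh18a1 and 0.59 for Homer1.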

How the results depend on the processing

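The direction and call of all 9 genes in IP against input held under each alternative run: median and upper quartile scaling, log2(CPM + 1), limma-voom, no filter, eBayes without trend or robust, the replicate block and each library left out. In CNO against vehicle, the count of the 9 lower in IP was 1 with upper quartile scaling (Glul), and 0 to 1 with a library left out (Glul without vehicle mouse 5, Slc38a3 without vehicle mouse 3). Upper quartile scaling moved the median log2 difference of all genes between IP and input to -0.18 in CNO mice and -0.15 in vehicle mice, and the percentage of calls in favour of IP to 39.8% and 40.6%, against 53.3% and 50.3% as deposited. For CNO in IP the percentage higher was 38.8% with upper quartile and 47.4% with median scaling, against 59.2%, and for the interaction 72.7%, against 88.0%. Changes of sign with median and upper quartile scaling were small: in CNO IP Grm5 gave -0.000926 and -0.028 and Slc1a3 -0.0063 and -0.033, in the interaction Grm5 gave -0.023 and -0.036 and Slc1a3 -0.010 and -0.023, and in CNO input Slc1a3 gave 0.00548 with median scaling.

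Of the other pathway genes, the count lower in IP of CNO mice was 24 and 26 with median and upper quartile scaling, and the count lower after CNO in IP 1 and 2 (0 to 3 with a library left out). In CNO input the count higher was 0 without trend or robust and with the replicate block (0 to 1 with a library left out), and the count lower 0 to 1, as in the interaction. Aldh18a1 in IP of vehicle mice, at 0.25, lost its call with median (adjusted p = 0.0805) and upper quartile scaling (0.308). The replicate numbers do not pair CNO with vehicle mice (correlations -0.168 to 0.178 in IP, 1 of 4 best with its own number, and -0.315 to 0.0285 in input, 0 of 4). A block on them gave 1236 higher and 717 lower genes in IP, against 1599 and 1104, and 95 and 7 in input, against 129 and 29. It ended the calls of Grm7 in IP (adjusted p = 0.0890) and Slc7a5 in input (0.0523). For the interaction the mouse block gave 1018 higher and 222 lower, against 680 and 93, and it added the Slc7a11 call. It changed no call of the 9 genes.

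The sign changed with a library left out in CNO against vehicle IP for Grm5 (-0.055 to 0.11), Slc1a2 (-0.18 to 0.0077), Slc1a3 (-0.042 to 0.082). The sign changed with a library left out in CNO against vehicle input for Grm3 (-0.12 to 0.0081), Grm5 (-0.058 to 0.061), Grm7 (-0.016 to 0.048), Homer1 (-0.0900 to 0.065), Slc1a2 (-0.087 to 0.17), Slc1a3 (-0.064 to 0.031), Slc6a11 (-0.46 to 0.10). The sign changed with a library left out in the interaction for Abat (-0.077 to 0.051), Glul (-0.18 to 2.1e-05), Grm3 (-0.087 to 0.042), Grm5 (-0.060 to 0.10), Slc1a2 (-0.26 to 0.035), Slc1a3 (-0.029 to 0.10), Slc6a11 (-0.29 to 0.27). The cause of these changes was not tested. With 4 libraries a group, the smallest exact p of a gene ratio was 0.0286 and 0 of 36 passed after adjustment, and the wide intervals of Slc6a11 limit what its values show.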

Other observations

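Whether mice with more of a transcript in input also had more of it in IP was computed for the 9 genes across the 8 mice, a set of 9 relations added after the data were seen. For Slc6a11 Pearson's r of log2 CPM was 0.755 (exact permutation p = 0.0241, adjusted 0.0542) and Spearman's rho 0.952 (exact permutation p = 0.00114, adjusted 0.0103), and r was 0.824 without the 2 mice farthest from the median input. For Slc1a3 r was 0.831 (exact permutation p = 0.0103, adjusted 0.0464) and rho 0.905 (adjusted exact permutation p = 0.0205), with r of 0.523 without the 2 farthest mice. For Glud1 r was 0.807 (adjusted exact permutation p = 0.0464), rho 0.762 (adjusted exact permutation p = 0.110) and r without the 2 farthest mice 0.577. The other 6 genes did not pass on either measure. The relation was also taken on deviations from the injection means, with mice exchanged only within their injection (576 arrangements). For Slc6a11 r was then 0.773 and rho 1 (exact permutation p = 0.00347 and adjusted 0.0313 for both), with the same order of mice in IP and input after either injection. For Slc1a3 r was 0.848 and for Glud1 0.684, and neither passed (adjusted exact permutation p = 0.258 for both), nor did the other 6 genes. Differences between mice in the cell types of the tissue were not taken into account, and their part in these relations was not tested.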
